A study of Mus musculus with 28 samples.

Results

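The DNA replication fork and nucleotide synthesis genes described here are 40 genes chosen by symbol, out of 24079 rows of the count table. They hold the sliding clamp and its loader (6 genes), the replicative polymerases and primase (9), the single-strand binding proteins (3), the enzymes that finish Okazaki fragments (3), helicase co-factors and fork protection factors (8), origin recognition subunits with the origin-firing kinase (5), nucleotide synthesis enzymes (5), and the histone mRNA binding gene Slbp (1). All 40 were found, all 40 passed the filter on low counts, and no member was at 0 in any library. The smallest member count in a library was 275, for Orc1.

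The libraries are mRNA sequencing of RAS/DNP53-transformed mouse embryonic fibroblasts of strain C57BL/6x129Sv, harvested the morning after overnight treatment. In the tagged clones, 12 and 14, cyclin D1 carries the tag that the labels call Ctag. Each of them gave 1 library with FLAG siRNA, HA siRNA, the 3 cyclin D1 siRNAs labelled Qiagen, Nature and Life, the control siRNA labelled SCR, leptomycin B at 20 ng/mL, and no treatment. The untagged clones, 18 and 25, each gave 1 library with FLAG siRNA, HA siRNA and SCR siRNA. Clone 18 carrying a FLAG-mCherry-HA construct gave 2 libraries with HA siRNA and 1 with FLAG siRNA, and clone 18 carrying mCherry gave the same set. All lines share the transformation, each line is a single clone or a derivative of clone 18, and siRNA cells received a transfection that untreated cells did not. Each library counted as 1 sample, since the sources do not explain the n of 3 or 4 in its title.

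As background, a replication fork opens DNA with a helicase whose co-factors are CDC45 and the GINS complex, copies it with polymerases alpha, delta and epsilon, and clamps the polymerases to DNA with PCNA, which the RFC complex loads. Ribonucleotide reductase and thymidylate synthesis supply the deoxynucleotides. Many of these genes are transcribed at the entry into S phase by E2F factors, which are held back by the retinoblastoma protein until cyclin-dependent kinases, including those bound by cyclin D1, phosphorylate it. The FLAG and HA siRNAs address the epitope tags and the Qiagen, Nature and Life siRNAs address the Ccnd1 message itself, so the design asks whether tag-directed and direct depletion of cyclin D1 move these genes alike, and whether the movement is absent where cyclin D1 has no tag. In bulk RNA, fewer cells in S phase and less transcript per S-phase cell cannot be told apart.

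The libraries held between 26558256 and 81512769 counts each, and the 40 genes together took 0.302% to 0.456% of them. Ccnd1 stood at 181 and 131 CPM (counts relative to the TMM-scaled library total) with FLAG siRNA in tagged clones 12 and 14, 222 and 219 with HA siRNA, 329 and 323 with Qiagen, 63.8 and 50.1 with Nature, and 73.7 and 52.5 with Life, against 1128 and 1287 with SCR. The SCR library of clone 12 stood apart. It was the deepest, had the fewest genes with any count (14132), and had the highest mean level of the 40 genes. In the library labelled Life of clone 14, Nature of clone 14, HA of clone 12 and mCherry with HA siRNA replicate 2, the ribosomal precursor Rn45s took over 2% of counts. The fibroblast markers summed to 4300 to 9258 CPM, with Vim alone at 2768 to 8406. Col1a1, Col1a2, Pdgfrb and Thy1 were as low as 0.292, 0.201, 1.02 and 0 CPM, each in its lowest library. The endothelial markers summed to at most 1.95 CPM, the macrophage markers to at most 6.82, and the neural markers to 3.85 to 38.7. The epithelial markers summed to 87.4 to 1958 CPM, most of it Krt18 (up to 1919), with Epcam at most 0.867. Their sum followed the clone, at 87.4 to 229 in clone 12 and 970 to 1958 in clone 14, and its part in the results was not tested.

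Per kilobase of annotated exon, the highest of the 40 was Pcna, the clamp itself, at a median of 165 CPM per kb over the 28 libraries, with 120 in the lowest and 267 in the highest. Rrm2, the regulated subunit of ribonucleotide reductase, followed with a median of 86.4 CPM per kb, and Pold2, a polymerase delta subunit, with 60.8. The lowest were Orc1, the origin recognition subunit whose level is cell cycle dependent, at 4.25 CPM per kb, Gins3 at 5.16, and Pold3 at 5.43. The widest range across libraries was that of the flap endonuclease gene Fen1, whose highest CPM was 3.68 times its lowest. Pole2, a polymerase epsilon subunit, spanned 3.60 times and the primase gene Prim1 3.51 times, and for both genes all 8 libraries of clone 12 lay above all 20 others. The narrowest was Cdc45, at 1.59 times.

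The mean log2 CPM of the 40 genes in a library was lowest, at 5.87, with Life siRNA in clone 12, and highest, at 6.40, with SCR in the same clone. In clone 12 the tag siRNAs gave 6.07 (FLAG) and 6.19 (HA), the cyclin D1 siRNAs gave 6.00 (Qiagen), 6.21 (Nature) and 5.87 (Life), and leptomycin B gave 6.34, against 6.40 with SCR and 6.38 untreated. All 5 targeting siRNAs of clone 12 thus stood below all 3 other libraries of the clone. In clone 14 the tag siRNAs gave 6.01 (FLAG) and 6.20 (HA), the cyclin D1 siRNAs gave 6.05 (Qiagen), 6.09 (Nature) and 5.98 (Life), and leptomycin B gave 6.15, against 6.16 with SCR and 6.14 untreated. There the differences were smaller, and HA stood above SCR. In the untagged clones 18 and 25 it was 5.96 and 5.88 with FLAG and 6.03 and 5.97 with HA, against 6.00 and 6.00 with SCR.

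**Figure D1:**
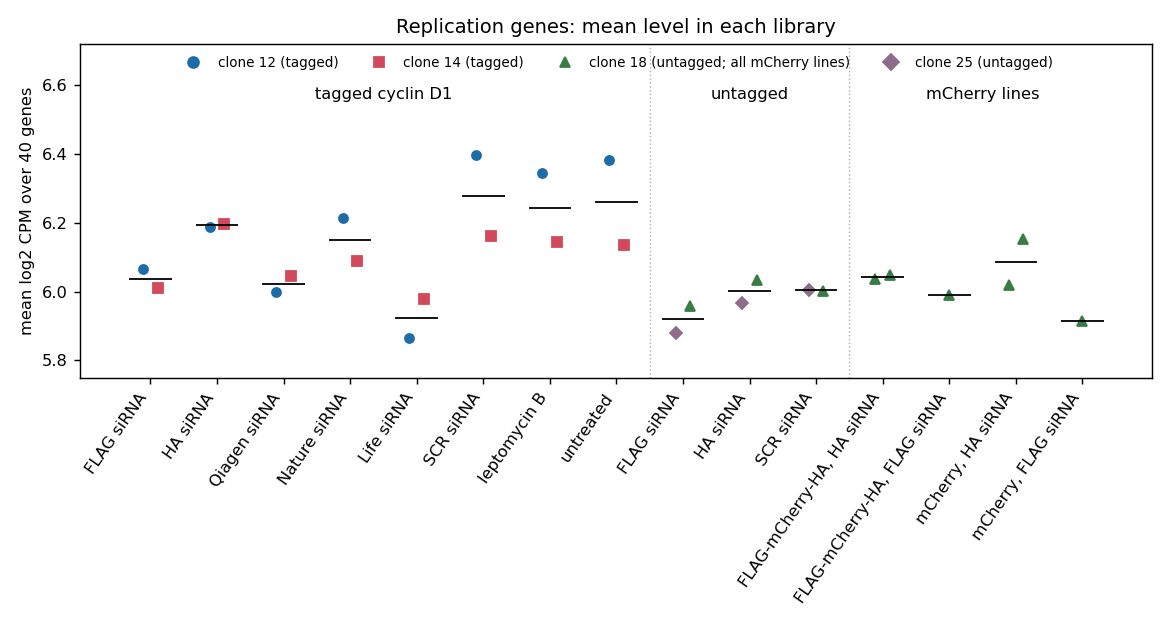
Mean log2 CPM over the 40 replication genes (vertical axis) in each of the 28 libraries, by group (horizontal axis); each point is a library, its shape gives the clone, and the line is the group mean. In clone 12 the SCR, leptomycin B and untreated libraries lie between 6.34 and 6.40 and every targeting siRNA lies at or below 6.21, while the clone 14 libraries lie between 5.98 and 6.20.

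The members did not all follow that mean. Over the 16 tagged libraries, after removing each clone's own level, the correlation of a gene with the mean of the other 39 was 0.55 at the median, with 24 of 40 above 0.5. The highest were Rrm1, the large ribonucleotide reductase subunit, at 0.89, Cdc45 at 0.84, and the polymerase alpha subunit Pola2 at 0.81. The lowest were Dbf4, the activator of the origin-firing kinase CDC7, at 0.10, Wdhd1, which links polymerase alpha to the helicase, at 0.12, and Tipin at 0.27. These points share libraries, depth and scaling, so the values describe this table only.

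With the 3 cyclin D1 siRNAs against SCR in tagged clones, 37 of 40 genes had a negative log2 fold change, and the median was -0.28, beside a median of 0.02 over all 15099 genes, of which 46.3% were negative. By edgeR at an adjusted p under 0.05, 5 of the 40 fell, where the background was 2.72% called lower, and 1 rose, where it was 2.68% called higher. The 5 that fell were Timeless, Fen1, the thymidine salvage kinase Tk1, Pold3 and Slbp, and the 1 that rose was Dbf4. The Slbp value is a mean of unlike siRNAs, at -1.04 with Life, -0.37 with Qiagen and 0.20 with Nature against SCR, and its call was lost without any of 5 libraries, SCR of clone 12 or 14, Qiagen of clone 12 or 14, or Life of clone 12. By role, 9 of 9 polymerase and primase genes were negative with 1 called, 6 of 6 clamp and loader genes were negative with 0 called, and 5 of 5 nucleotide synthesis genes were negative with 1 called. The 3 RPA genes, which coat single-stranded DNA, had values of -0.16 to -0.01 and no call.

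Timeless, which holds the helicase and polymerases together at the fork (chr10:128232065-128252941 on GRCm38, plus strand), had 40.8 and 30.8 CPM with Qiagen in clones 12 and 14, 30.1 and 25.2 with Nature, and 39.8 and 30.6 with Life, against 67.6 and 36.1 with SCR. Every cyclin D1 siRNA library was below the SCR library of its own clone, by more in clone 12. The fitted log2 fold change was -0.61 ± 0.12 (SE), an edgeR adjusted p of 0.00661. Tk1 had 114 and 173 CPM with Qiagen, 199 and 236 with Nature, and 124 and 195 with Life, against 244 and 254 with SCR. It was again lower in all 6 libraries than in SCR of the same clone, least with Nature. Its log2 fold change was -0.57 ± 0.13 (edgeR adjusted p = 0.0148). Pold3 is an accessory subunit of polymerase delta. Its values were 26.0 and 18.4 CPM with Qiagen, 30.7 and 22.1 with Nature and 30.2 and 23.8 with Life, against 41.2 and 27.0 with SCR, and its log2 fold change was -0.43 ± 0.10 (edgeR adjusted p = 0.0154). Here too each library lay below SCR of its clone.

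The catalytic subunit of polymerase epsilon, Pole, missed the threshold at -0.53 ± 0.16 (edgeR adjusted p = 0.0611), as did the ligase gene Lig1 at -0.40 ± 0.12 (0.0557), Rfc3 at -0.38 ± 0.11 (0.0583) and Rrm2 at -0.46 ± 0.15 (0.0868). Only Dbf4, Gins4 and Tipin had positive values, and of these only Dbf4 was called. The size of the shift differed between the clones: the median difference in log2 CPM from SCR was -0.36 in clone 12 and -0.11 in clone 14, with 37 and 32 of 40 genes negative. Without the SCR library of clone 12, the median was -0.14 and 0 of 40 genes were called by edgeR. Without the Nature library of clone 14 there were 10 calls.

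**Figure D2:**
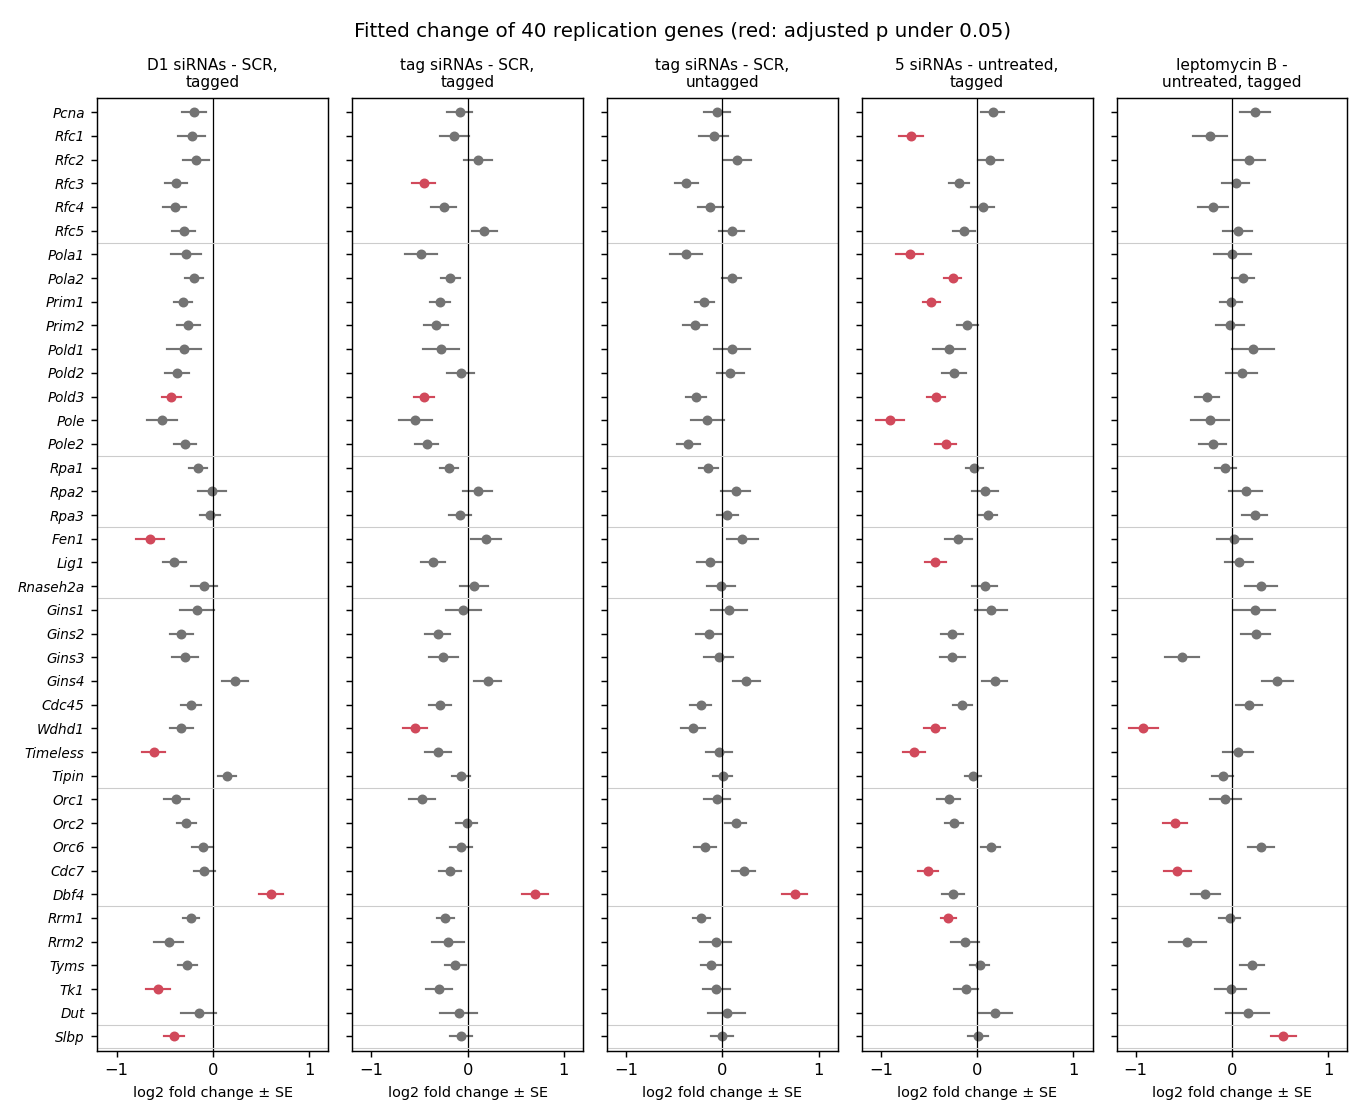
Fitted log2 fold change (horizontal axis, with SE bars) of each of the 40 genes (vertical axis, ordered by role from the clamp at the top to Slbp at the bottom) in 5 comparisons; red marks an edgeR adjusted p under 0.05. Most points of the first 2 panels lie left of 0, Dbf4 lies right of 0 in the first 3 panels and left of it in the last 2, and the fourth panel holds 12 red points, all left of 0.

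With the FLAG and HA siRNAs against SCR in the same tagged clones, 33 of 40 genes were negative with a median of -0.19, beside 0.03 over all genes. By edgeR 3 fell, against a background of 1.83% called lower, and 1 rose, against 2.03%. Wdhd1, Pold3 and Rfc3 fell and Dbf4 rose. Wdhd1 (chr14:47240944-47276857, minus strand) had 56.2 and 56.7 CPM with FLAG and 59.8 and 65.5 with HA, against 96.5 and 77.2 with SCR, a log2 fold change of -0.55 ± 0.12 (edgeR adjusted p = 0.0177). All 4 tag siRNA libraries were below both SCR libraries. Pold3 had 28.9 and 23.1 CPM with FLAG and 27.4 and 19.6 with HA, against 41.2 and 27.0 with SCR, a log2 fold change of -0.45 ± 0.10 (0.0192). Rfc3, a clamp loader subunit, had 43.1 and 40.9 CPM with FLAG and 43.1 and 39.7 with HA, against 68.6 and 47.0 with SCR, a log2 fold change of -0.46 ± 0.12 (0.0410). For these last 2 genes the groups did not overlap within a clone, where 2 tag siRNA libraries stand against 1 SCR library.

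The median difference from SCR was -0.29 in clone 12 and -0.08 in clone 14. Without the SCR library of clone 12 the median of the fit was -0.11 and 0 of 40 were called by edgeR. Without the FLAG or the HA library of clone 12 there was 1 call in each case, without the FLAG or the HA library of clone 14 there were 2, and without SCR of clone 14 there were 6.

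The promoters of Pold3 and Rfc3, which were called with the tag siRNAs, and of Lig1 are shown because they hold words that E2F factors are known to bind, and because these are the 3 such members with the smallest p in the cyclin D1 siRNA comparison. Each is 300 bases from RefSeq on GRCm38.p6, 250 before and 50 from the gene's start, 5′ to 3′ on the gene's strand, with the words in capitals. Pold3 is chr7:100121453-100121752 on the minus strand, Rfc3 is chr5:151651159-151651458 on the minus strand, and Lig1 is chr7:13278576-13278875 on the plus strand, 1 of its listed starts. The windows of the other listed Lig1 starts hold no such word.
Pold3: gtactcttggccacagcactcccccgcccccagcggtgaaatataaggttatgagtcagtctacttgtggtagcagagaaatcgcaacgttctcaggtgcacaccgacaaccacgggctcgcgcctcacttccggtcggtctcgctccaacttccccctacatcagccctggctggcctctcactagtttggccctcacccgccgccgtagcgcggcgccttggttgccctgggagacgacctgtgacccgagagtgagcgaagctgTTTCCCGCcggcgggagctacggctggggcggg
Rfc3: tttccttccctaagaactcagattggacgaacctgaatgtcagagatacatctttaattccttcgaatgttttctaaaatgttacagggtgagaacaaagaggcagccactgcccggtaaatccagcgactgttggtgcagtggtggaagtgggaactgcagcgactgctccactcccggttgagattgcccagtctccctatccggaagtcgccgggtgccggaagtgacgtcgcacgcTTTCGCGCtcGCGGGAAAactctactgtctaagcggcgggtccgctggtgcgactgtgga
Lig1: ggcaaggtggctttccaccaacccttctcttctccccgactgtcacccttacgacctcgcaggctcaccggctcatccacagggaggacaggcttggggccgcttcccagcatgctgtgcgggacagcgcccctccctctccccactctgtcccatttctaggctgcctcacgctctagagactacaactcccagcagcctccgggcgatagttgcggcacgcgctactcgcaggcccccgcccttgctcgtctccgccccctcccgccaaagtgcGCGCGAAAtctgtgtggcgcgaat
The words searched were TTTCCCGC, TTTCGCGC, TTTGCCGC and TTTGGCGC on both strands. Of the 40 genes, 33 had a promoter in the table, and 8 of these (24.2%) held at least 1 word, beside 704 of 27025 genes (2.60%). The CCAAT box, searched as CCAAT on both strands, was in 18 (54.5%) beside 41.1% of genes, and the word TTTGAA in 6 (18.2%) beside 20.2%. The RefSeq window of Timeless lies inside the annotated gene and is not shown. The 27025 genes were not limited to those that passed the filter on low counts. The 8 genes with an E2F word had a median log2 fold change of -0.34 with the cyclin D1 siRNAs and -0.44 with tag siRNAs. The 25 without, which include Timeless, had -0.23 and -0.13. Against untreated cells the medians of the 8 and the 25 were -0.31 and -0.14 with the mean of all targeting siRNAs. With leptomycin B they were -0.03 and 0.06. The part of the words in these values was not tested. A word is a match of letters, and no match in this window says nothing about the factor.

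In the untagged clones the FLAG and HA siRNAs left Ccnd1 near its SCR level, at a log2 fold change of -0.15 ± 0.20. There 25 of 40 genes were negative with a median of -0.06, beside 50.9% negative and a median of -0.01 over all genes. By edgeR 0 fell and 1 rose (background 1.47% lower and 1.21% higher). The gene that rose was again Dbf4. The largest negative values were those of the polymerase alpha catalytic subunit Pola1 at -0.38, Rfc3 at -0.37 and Pole2. Without the SCR library of clone 18, Dbf4 was not called either. The difference between the tagged and the untagged response was negative for 37 of 40 genes with a median of -0.10. Over all genes 46.3% were negative and the median was 0.02. The median of the 40 was -0.02 without the SCR library of clone 12 and -0.04 without the libraries over 2% Rn45s. By edgeR at an adjusted p under 0.05, and by DESeq2, 0 were called. In edgeR 0.00662% of all genes were called lower and 0% higher. At an unadjusted p under 0.05 there were 2 of the 40, beside 2.67% of all genes. They were Orc1 at -0.42 ± 0.20 and Cdc7, the kinase that fires origins, at -0.41 ± 0.17, and neither is a call. For Pold3, Wdhd1 and Rfc3 this difference was -0.17 ± 0.15, -0.24 ± 0.18 and -0.08 ± 0.17, so none of the 3 genes called in tagged clones was shown to respond differently there.

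Clone 18 with FLAG-mCherry-HA, which gives the tag siRNAs a target other than cyclin D1, was set against clone 18 with mCherry. The median of the 40 genes was -0.01, beside -0.003 over all genes. Of the 40, 21 were negative and 0 were called by edgeR, where the background was 0%, or by DESeq2. At an unadjusted p under 0.05 there were 3 of the 40, a share of 7.5% beside 9.21% of all genes, so that they are not a result about the members. Each construct had 3 libraries, compared as 3 matched pairs that pool HA and FLAG siRNA.

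Dbf4 went against most other members. The gene (chr5:8396973-8422716, minus strand) had 112 and 113 CPM with FLAG in clones 12 and 14, 114 and 125 with HA, 113 and 109 with Qiagen, 140 and 119 with Nature, and 88.1 and 92.0 with Life, against 77.0 and 66.2 with SCR. In the untagged clones 18 and 25 it had 133 and 111 with FLAG and 128 and 107 with HA, against 66.2 and 75 with SCR. The 4 SCR libraries, tagged and untagged, were the 4 lowest of all 28. The log2 fold change over SCR was 0.61 ± 0.13 with the cyclin D1 siRNAs (edgeR adjusted p = 0.00871), 0.70 ± 0.13 with the tag siRNAs in tagged clones (0.00479) and 0.75 ± 0.13 in untagged clones (0.00317). The cyclin D1 siRNA call was lost without SCR of clone 12 (log2 fold change 0.66) or of clone 14 (0.56). In tagged clones the tag siRNA call was lost without SCR of clone 12 (0.75).

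Dbf4 was also set against untreated cells. It had 77.0 and 66.2 CPM with SCR in clones 12 and 14, against 142 and 125 in untreated cells, a log2 fold change of -0.90 ± 0.15 (edgeR adjusted p = 0.00271). Dbf4 was the only 1 of the 40 called between SCR and untreated cells, where 3.61% of genes were called lower and 1.68% higher. With untreated cells in place of SCR, its value turned to -0.29 with the cyclin D1 siRNAs (edgeR adjusted p = 0.0873) and to -0.19 with the tag siRNAs (0.268). The higher Dbf4 with siRNAs held against SCR and not against untreated cells.

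The most abundant member of each role group was not called in the pooled contrasts with SCR, apart from Fen1 and Slbp. Pcna had 355 and 505 CPM with FLAG in clones 12 and 14, 401 and 642 with HA, 313 and 465 with Qiagen, 470 and 554 with Nature and 288 and 553 with Life, against 444 and 542 with SCR. Its siRNA libraries lay on both sides of SCR in each clone. The polymerase delta subunit Pold2 had 119 and 117 CPM with FLAG, 131 and 118 with HA, 76.7 and 116 with Qiagen, 116 and 111 with Nature and 87.3 and 87.4 with Life, against 124 and 131 with SCR. It was lowest with Qiagen in clone 12 and with Life in clone 14. Rpa1, the large subunit of the single-strand binding complex, had 234 and 235 CPM with FLAG, 243 and 264 with HA, 258 and 274 with Qiagen, 237 and 233 with Nature and 234 and 266 with Life, against 298 and 259 with SCR. All 5 siRNAs were below SCR in clone 12, and 2 of 5 in clone 14. Rrm1 had 294 and 241 CPM with FLAG, 313 and 288 with HA, 330 and 264 with Qiagen, 340 and 276 with Nature and 271 and 236 with Life, against 393 and 280 with SCR. Only HA in clone 14 exceeded the SCR library of its clone. Tipin, the partner of Timeless, had 86.1 and 72.3 CPM with FLAG, 101 and 98.5 with HA, 113 and 94.9 with Qiagen, 144 and 107 with Nature and 85.7 and 84.3 with Life, against 97.6 and 88.7 with SCR. Nature gave the highest Tipin of both clones. Orc2 had 127 and 134 CPM with FLAG, 131 and 158 with HA, 127 and 110 with Qiagen, 127 and 129 with Nature and 105 and 94.4 with Life, against 143 and 134 with SCR, so that Life was the lowest in both clones. In the untagged clones and the mCherry lines Pcna ranged over 335 to 459 CPM and Rpa1 over 168 to 211.

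Against SCR, the single siRNAs in tagged clones called different numbers of the 40 genes by edgeR. Life lowered 8 and raised 0 (background 4.32% lower and 3.97% higher), Qiagen lowered 5 and raised 1 (2.53% and 2.8%), Nature lowered 3 and raised 3 (4.8% and 3.76%), FLAG lowered 1 and raised 1 (0.987% and 1.19%), and HA lowered 1 and raised 1 (2.15% and 1.95%). The HA counts in tagged clones are near these shares and are not a result about the members. In untagged clones FLAG lowered 0 and raised 1 (1.22% and 0.801%), and HA lowered 0 and raised 1 (1.22% and 0.94%). Dbf4 was the gene raised by FLAG, HA and Qiagen and by both siRNAs in untagged clones, and Nature raised it with Tipin and Gins4. In tagged clones the Dbf4 calls of FLAG and Qiagen were each lost without any 1 of the libraries compared. That of HA was lost without SCR of clone 12 or HA of clone 14. Both untagged calls were lost without SCR or the siRNA library of clone 18. Tipin and Gins4 were lost with Nature without SCR of clone 12 or 14 or Nature of clone 12. The genes lowered by Life included Orc1 at -0.79 ± 0.16 (edgeR adjusted p = 0.00476), Rrm2 at -0.84 ± 0.19 (0.0112) and Prim1 at -0.50 ± 0.12 (0.0119). With Qiagen Tk1 was at -0.82 ± 0.16 (0.00451), Rfc5 at -0.76 ± 0.15 (0.00466) and Rfc3 at -0.67 ± 0.14 (0.00829). These comparisons share the 2 SCR libraries. Without SCR of clone 12 these calls were lost for Orc1 (edgeR adjusted p = 0.0953), Rrm2 (0.107) and Prim1 (0.184) with Life and for Tk1 (0.101) and Rfc3 (0.225) with Qiagen. Without Qiagen of clone 12 the calls of Rfc5 (edgeR adjusted p = 0.0514), Tk1 (0.101) and Rfc3 (0.131) were lost. Prim1 and Rrm2 were lost without Life of clone 12 (0.0931 and 0.169), and Orc1 and Prim1 without Life of clone 14 (0.0721 and 0.0955).

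Single siRNAs moved single genes further than the pooled contrasts show. Each was set against the mean of the other 4 targeting siRNAs in tagged clones, which leaves SCR out. With Life siRNA 6 of 40 genes fell and 0 rose (edgeR, background 6.62% lower and 7.58% higher), with Nature 2 fell and 4 rose (5.5% lower, 4.44% higher), with Qiagen 2 fell and 2 rose (5.72% and 8%), with HA 0 fell and 3 rose (2.21% and 2.65%), and with FLAG 1 fell and 0 rose (0.762% and 0.563%). The counts that fell with Nature and Qiagen, and that rose with Qiagen, do not exceed the background share. Those counts are not a result about the members. Fen1, Rfc5, Slbp and Tipin appear in more than 1 of these lists, each with a different siRNA at the low end.

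Slbp, whose protein binds the stem-loop of histone mRNAs (chr5:33634952-33652574, minus strand), had 53.0 and 56.5 CPM with Life in clones 12 and 14. With the other targeting siRNAs it had 102 and 90.4 (FLAG), 114 and 124 (HA), 92.2 and 82.6 (Qiagen) and 152 and 108 (Nature). The Life libraries were the lowest 2 of all 28. The log2 fold change of Life against the other 4 was -0.96 ± 0.11 (edgeR adjusted p = 2.47e-05), and against SCR, at 117 and 109 CPM, it was -1.04 ± 0.13 (9.92e-05). Both calls held in every alternative tried for them, 19 and 13.

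Rfc5, a clamp loader subunit (chr5:117378103-117389047, minus strand), had 34.3 and 34.4 CPM with Qiagen. With the other targeting siRNAs it had 55.4 and 62.3 (FLAG), 68.8 and 77.1 (HA), 74.7 and 62.9 (Nature) and 40.5 and 48.2 (Life), and with SCR 58.1 and 58.1. The Qiagen libraries were the lowest 2 of all 28, and the Life libraries came next. The log2 fold change of Qiagen against the other 4 was -0.81 ± 0.12 (edgeR adjusted p = 0.000388), a call that held in all 19 alternatives. The loader subunit genes Rfc2 and Rfc4 were not called with Qiagen, and Rfc1, the large loader subunit, rose by 0.48 ± 0.13 (0.0229). Rfc3 had 35.7 and 36.1 CPM with Qiagen in clones 12 and 14, its lowest values in the tagged libraries. It was called lower with Qiagen against SCR, as given above.

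Fen1, which removes the flaps of Okazaki fragments (chr19:10199132-10204169, minus strand), had 54.7 and 41.3 CPM with Nature. With the other targeting siRNAs it had 99.7 and 95.9 (FLAG), 118 and 127 (HA), 65.9 and 78.4 (Qiagen) and 61.0 and 70.7 (Life), and with SCR 106 and 87.0. An antisense gene, Gm10143, covers 78.8% of its exon bases. The 2 Nature libraries were the lowest of the 28, and all 6 cyclin D1 siRNA libraries were below all 4 tag siRNA libraries. The log2 fold change of Nature against the other 4 was -0.87 ± 0.15 (edgeR adjusted p = 0.00113). Nature also lowered Timeless, at -0.45 ± 0.13 (0.0333), while its partner Tipin rose at 0.45 ± 0.08 (0.00176) and Slbp at 0.58 ± 0.10 (0.000946).

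**Figure D3:**
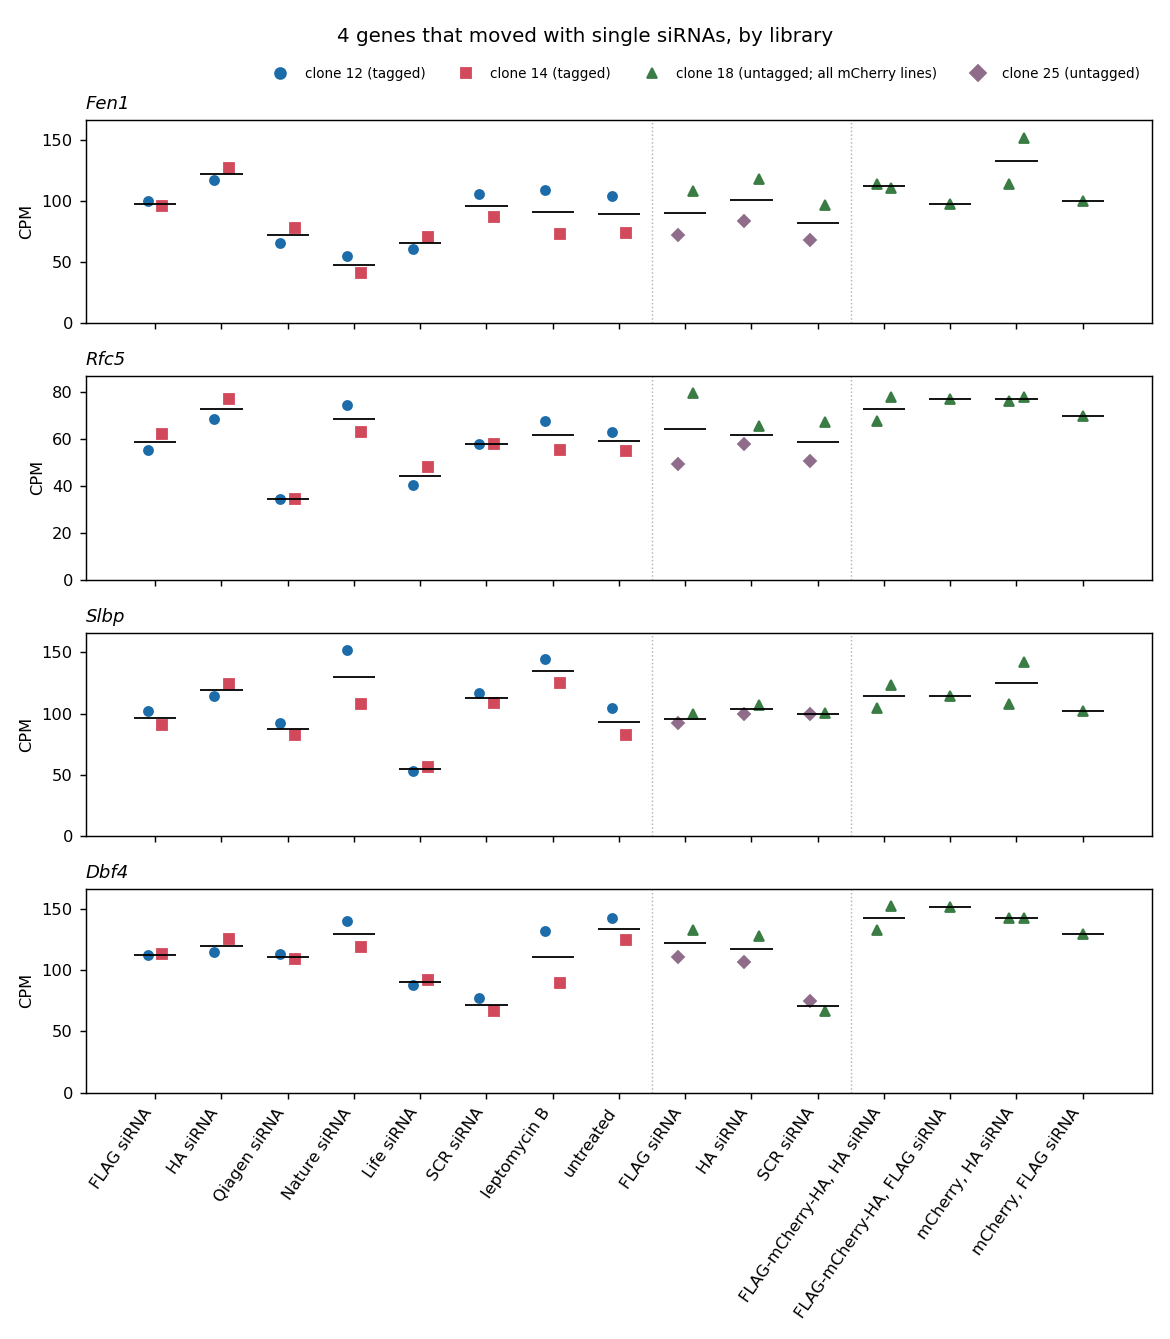
CPM (vertical axis, from 0) of Fen1, Rfc5, Slbp and Dbf4 in each of the 28 libraries by group (horizontal axis); points are libraries, shapes are clones and lines are group means. Fen1 is lowest with Nature (54.7 and 41.3 CPM), Rfc5 with Qiagen (34.3 and 34.4), Slbp with Life (53.0 and 56.5) and Dbf4 with SCR in tagged and untagged clones alike.

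With Life the other genes that fell were Rrm2 at -0.60 ± 0.16 (edgeR adjusted p = 0.0173), Orc1 at -0.47 ± 0.13 (0.0247), Orc2 at -0.39 ± 0.10 (0.0174), Rfc2 at -0.44 ± 0.14 (0.0387) and Dbf4 at -0.39 ± 0.12 (0.0407). Rrm2 had 155 and 288 CPM with Life, the lowest targeting siRNA libraries of both clones, where the other 4 siRNAs gave 219 to 287 in clone 12 and 381 to 449 in clone 14. The HA siRNA stood at the other end, with Fen1 at 0.84 ± 0.14 (0.00145), Rfc5 at 0.55 ± 0.11 (0.00758) and Slbp at 0.45 ± 0.10 (0.0158).

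Several of these counts rest on 1 library. The count for Life was 1 without its clone 12 library and 2 without its clone 14 library, and that for Nature 1 without its clone 12 library. The count for Qiagen was 1 without its clone 12 library or Life of clone 14, 2 without FLAG of clone 14, and 7 without Life of clone 12. For HA it was 0 without its clone 14 library, 5 without Nature of clone 12 and 6 without Qiagen of clone 14. The 1 call for FLAG, Tipin at -0.37 ± 0.09 (edgeR adjusted p = 0.0435), was lost without either FLAG library, without HA of clone 12 or of clone 14, and without Qiagen of clone 12, Nature of clone 12 or Life of clone 14. The libraries with over 2% Rn45s include Life and Nature of clone 14 and HA of clone 12; without all 4 such libraries the counts were 2 for Life, 2 for Qiagen and 0 for FLAG. Exon length moved with these contrasts: over all genes the 3373 longest had a median log2 difference of -0.17 with HA and -0.13 with Nature, and 0.20 with Qiagen and 0.19 with Life. The 3372 shortest had 0.17 with HA and 0.20 with Nature, and -0.19 with Qiagen and -0.09 with Life. The part of length was not tested.

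The tag siRNAs were set directly against the cyclin D1 siRNAs in tagged clones. The median over the 40 genes was 0.04 and 25 were positive. Over all genes the median was 0.00 and 49.9% were negative. By edgeR 0 of the 40 fell and 3 rose (background 3.09% lower and 3.9% higher). The 3 were Fen1 at 0.84 ± 0.12 (edgeR adjusted p = 0.000149), Rfc5 at 0.48 ± 0.09 (0.00426) and Slbp at 0.33 ± 0.09 (0.0231). Each of these had its lowest values with a single cyclin D1 siRNA, as given above. That trait is not theirs alone. Among the siRNA libraries of each tagged clone, Rrm2 and Orc2 were lowest with Life and Rfc3 with Qiagen. None of those genes was called here. The Fen1 call held in all 19 alternatives. Slbp was lost without FLAG of clone 12 or 14, HA of clone 14, Life of clone 12, or Nature of clone 14. There were 5 calls without Qiagen of clone 14, and 2 without FLAG or Life of clone 12 or without FLAG or HA of clone 14.

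Against untreated cells, the mean of all 5 targeting siRNAs in tagged clones lowered 12 of the 40 genes by edgeR and raised 0. The background was 17.6% called lower and 12.9% higher, and 28 of 40 were negative with a median of -0.19, beside 0.00 over all genes. Of the 9 polymerase and primase genes 6 fell, and the other genes that fell were Timeless, Rfc1, Cdc7, Wdhd1, Lig1 and Rrm1. Pole (chr5:110286306-110337474, plus strand) had 64.1 and 53.3 CPM with FLAG in clones 12 and 14, 64.4 and 46.7 with HA, 75.8 and 59.9 with Qiagen, 43.8 and 61.1 with Nature and 60.4 and 45.6 with Life, against 115 and 99.2 in untreated cells. No targeting siRNA library reached either untreated library. Its log2 fold change was -0.91 ± 0.14 (edgeR adjusted p = 0.000526).

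Timeless had 55.5 and 33.5 CPM with FLAG, 49.6 and 28.2 with HA, and the cyclin D1 siRNA values given above, against 71.6 and 43.2 in untreated cells, a log2 fold change of -0.65 ± 0.11 (edgeR adjusted p = 0.000882). All 10 siRNA libraries were below the untreated library of their clone. Prim1, the primase subunit that makes the RNA primer, fell by 0.48 ± 0.09 (0.00113), Pola1 by 0.70 ± 0.14 (0.00228), Rfc1 by 0.69 ± 0.13 (0.00129) and Cdc7 by 0.51 ± 0.10 (0.00200). Pcna at 0.16 ± 0.12, the RPA genes at -0.03 to 0.11 and Slbp at 0.01 ± 0.10 were not called. The median difference was -0.35 in clone 12 and -0.04 in clone 14.

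Gene length moved with this comparison across the whole table. Over all genes with a length, the 3373 with the longest exons (6.81 kb or more) had a median log2 fold change of -0.29 and 39.2% called lower, while the 3372 with the shortest (2.77 kb or less) had 0.32 and 2.43%. Among the 40 genes, the 12 that fell had a median of 6.07 kb of exon and the other 28 had 3.49 kb. Of the 6 members among the longest 5 fell, and of the 12 among the shortest 0 fell. Spearman's correlation of length with log2 fold change was -0.43 over 13488 genes and -0.55 over the 40, as a description across genes, which are not independent replicates. SCR against untreated cells had -0.33 and -0.42, and the cyclin D1 and tag siRNAs against SCR had -0.12 and -0.31 over all genes. Its part in these results was not tested. The labels of the untreated and leptomycin B libraries of clone 12 also carry a date, which the other libraries lack, and that difference and the treatment cannot be told apart in clone 12. The count was 3 without the untreated library of clone 14 and 6 without that of clone 12.

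**Figure D4:**
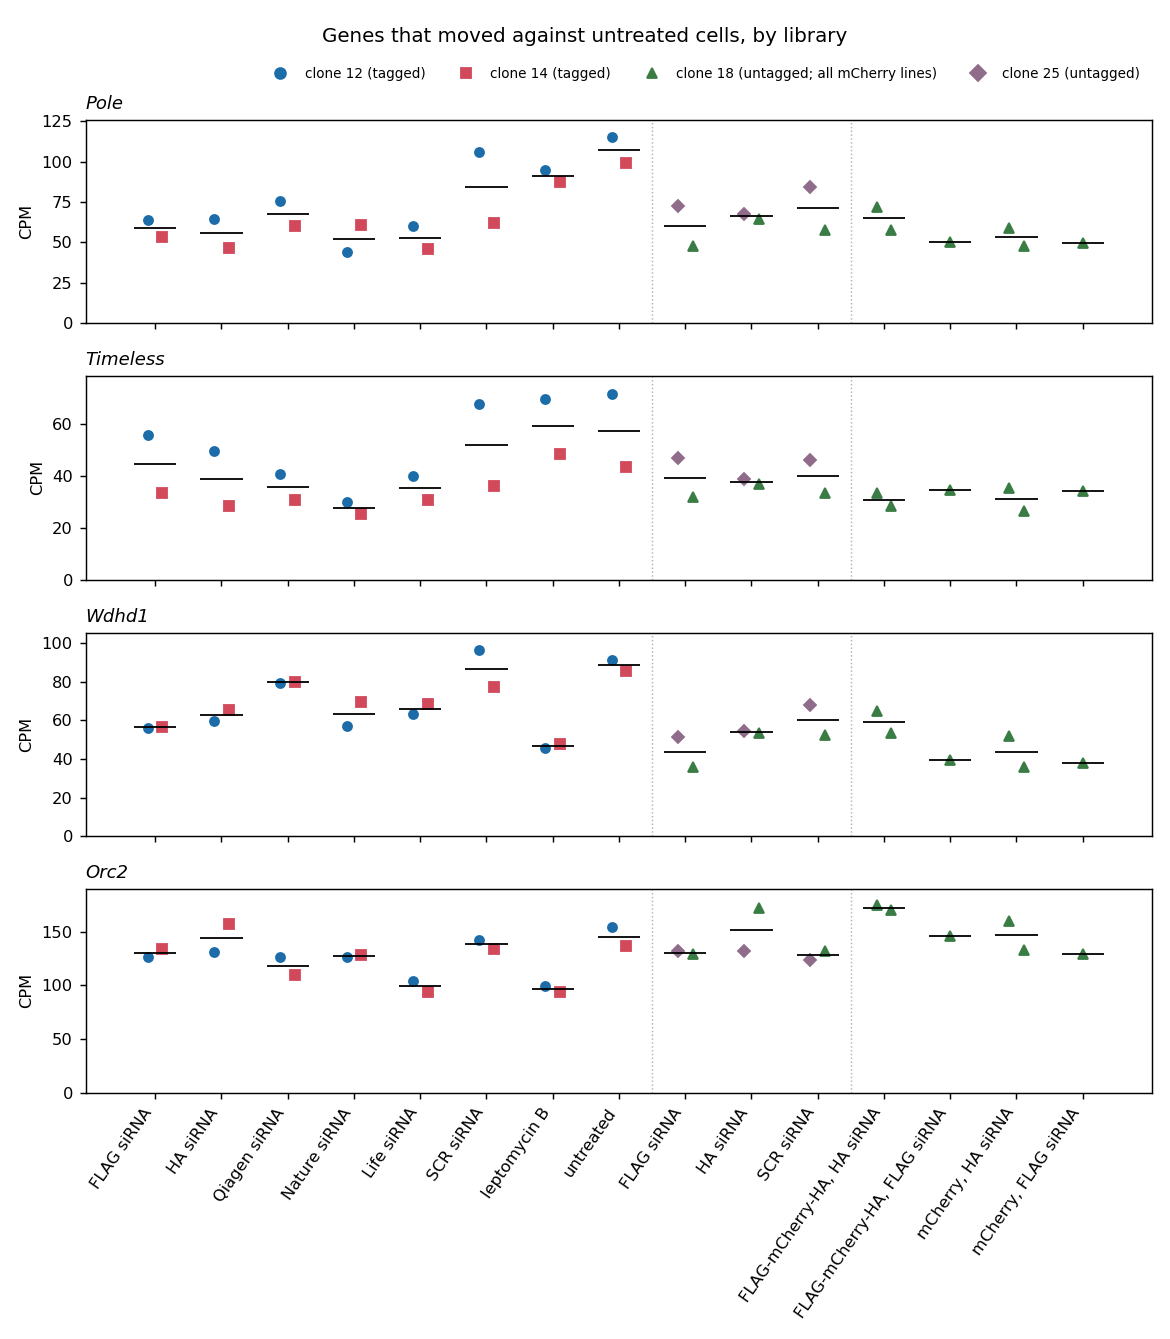
CPM (vertical axis, from 0) of Pole, Timeless, Wdhd1 and Orc2 in each of the 28 libraries by group (horizontal axis); points are libraries, shapes are clones and lines are group means. Pole is higher in both untreated libraries (115 and 99.2 CPM) than with any targeting siRNA, Timeless is higher in clone 12 than in clone 14 throughout, and Wdhd1 and Orc2 are lower with leptomycin B (45.9 and 47.6, 99.9 and 93.9 CPM) than in untreated cells.

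Leptomycin B, which blocks the nuclear exporter XPO1, gave a median log2 fold change of 0.03 over the 40 genes and 0.03 over all genes, and 18 of 40 were negative. By edgeR 3 genes fell (background 5.7% lower) and 1 rose (4.29% higher). Wdhd1 had 45.9 and 47.6 CPM with leptomycin B in clones 12 and 14, against 91.3 and 85.7 in untreated cells. Both treated libraries were below both untreated libraries, and the log2 fold change was -0.92 ± 0.15 (edgeR adjusted p = 0.000703). Orc2, an origin recognition subunit, had 99.9 and 93.9 CPM, against 155 and 137 in untreated cells, a log2 fold change of -0.59 ± 0.12 (0.00590). Cdc7 had 42.1 and 22.9 CPM, against 56.6 and 37.6, a log2 fold change of -0.57 ± 0.14 (0.0142). Its groups overlapped between clones, and with 1 library of each kind per clone they cannot overlap within a clone. Slbp had 145 and 125 CPM, against 104 and 82.3, a log2 fold change of 0.53 ± 0.13 (0.0167). All 4 genes moved the same way in both clones. So did most members, called or not, with 15 of the 40 lower and 19 higher in both clones. The calls came from these same libraries, so the shared direction is not a separate test.

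The 4 calls are 10% of the 40, and 1508 of all 15099 genes were called, so the number of calls is near the background and is not a result about the members. The Wdhd1 call held without any 1 of the 4 libraries. Slbp was lost without the leptomycin B library of clone 12 (edgeR adjusted p = 0.117) or 14 (0.0503) or the untreated library of clone 14 (0.186). Cdc7 was lost without either untreated library (0.0708 and 0.0897 for clones 12 and 14) or leptomycin B of clone 14 (0.128), and Orc2 without untreated of clone 12 (0.0845). Gins3 at -0.52 ± 0.17 and Gins4 at 0.47 ± 0.16, subunits of the same complex, had opposite signs and missed the threshold (edgeR adjusted p = 0.0675 and 0.0745). The count was 2 without the untreated library of clone 12 or the leptomycin B library of clone 14. Over all genes the same 3373 longest had a median of -0.13 and the 3372 shortest 0.23, and the part of length was not tested. The comparison shares its untreated libraries with the siRNA comparison above. Wdhd1 fell with leptomycin B and, at -0.44 ± 0.11 (edgeR adjusted p = 0.00690), with the 5 siRNAs. Its siRNA call was lost without the untreated library of clone 12 (log2 fold change -0.38) or of clone 14 (-0.51). Slbp had 0.53 ± 0.13 with leptomycin B and 0.01 ± 0.10 with the 5 siRNAs, a difference that was not tested.

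Between tagged and untagged clones with SCR siRNA, 37 of 40 genes were higher in the tagged clones and the median difference was 0.26, beside -0.00 over 13233 genes. The median was 0.12 without SCR of clone 12 and 0.37 without SCR of clone 14. With the FLAG libraries in place of SCR it was 0.07. With FLAG and HA siRNA alike, the mean log2 CPM given above was higher in each tagged clone than in either untagged one. By edgeR, where 0% of genes were called, and by DESeq2, 0 of the 40 were called, and 1 passed an unadjusted p under 0.05 in edgeR, beside 3.34% of all genes. That gene was Rrm2, with 330 and 438 CPM in tagged clones 12 and 14, against 240 and 239 in untagged clones 18 and 25 (0.68 ± 0.23). Clones are the replicates here, with 2 of each kind. Clones of 1 kind also differed: Prim1 had 151 and 80.9 CPM in the tagged clones, against 58.8 and 73.5 in the untagged, and Tk1 had 244 and 254, against 242 and 131. The tag and the clones' own histories cannot be told apart.

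Other genes of the same steps were taken from lists by function. With the cyclin D1 siRNAs against SCR (2.72% of all genes lower), all 10 origin licensing and helicase genes were negative and 5 fell, including Mcm5 at -0.87 ± 0.10 (edgeR adjusted p = 4.24e-05) and the licensing factor Cdc6 at -0.77 ± 0.12 (0.000873). Of 26 further nucleotide synthesis genes 5 fell, of 21 further fork and origin genes 2 fell, and of 9 G1/S regulators 2 fell, led by Ccne1, cyclin E1, at -1.0 ± 0.11 (4.11e-05). With the tag siRNAs (1.83% lower) 1 licensing gene fell, Cdc6 at -0.67 ± 0.13 (0.00485). Of the further nucleotide synthesis genes only Shmt2, a mitochondrial serine-to-glycine enzyme, fell, at -1.29 ± 0.16 (0.000128), and it fell in untagged clones too, at -1.33 ± 0.16 (0.000109), with a difference between the responses of 0.03 ± 0.24. Of the 9 G1/S regulators 2 fell with the tag siRNAs, Ccne2 and Skp2, and of the 21 fork and origin genes 2 fell, Dna2 and Recql4. Against untreated cells (17.6% lower and 12.9% higher) the 5 siRNAs lowered 6 of 10 licensing genes, 9 of 21 fork and origin genes with 3 higher, and 10 of 26 nucleotide synthesis genes with 3 higher, while 0 of 9 G1/S regulators were called. With leptomycin B (5.7% lower and 4.29% higher) 0 of 10 licensing genes were called, 4 of 9 G1/S regulators fell, and 4 of 26 nucleotide synthesis genes fell, led by Ctps, CTP synthase, at -0.77 ± 0.10 (0.000124).

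Some member counts may hold reads of other genes. By the GENCODE M21 annotation 18 of the 40 share exon bases with another gene, most on the opposite strand. After Fen1 the largest share is that of Gins2, at 67.3%, with Gse1, and for Orc2 29.8%, with Nif3l1. The library kit keeps strand, but how strand was set in the counting is not stated. Near-identical copies of at least 95% identity over 200 bases exist for 6 members, which are Pcna, Rfc5, Rrm2, Slbp, Tyms and Wdhd1, and their counts are uncertain to that extent.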

How the data were processed

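mRNA of 28 libraries was sequenced, and per the labels' protocols the kit kept strand. Per the submitters' processing notes the authors' tools were HTSeq 0.6.1p1, TopHat2 2.0.13, Bowtie2 2.2.3, CASAVA 1.8.2 and FastQC, and the build was mm10. They deposited raw counts per gene. The strand setting of the counting is not stated.

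The counts were fitted with edgeR 4.0.16 in R 4.3.3, with limma 3.58.1 loaded, using TMM scaling, a filter on low counts by group, and the robust quasi-likelihood test. All 28 libraries in 15 groups shared 1 fit with 17 coefficients and 11 residual degrees of freedom. The block was the clone within the tagged and within the untagged clones, and the matched pair within the mCherry lines. Tagged against untagged clones with SCR used its own 4 libraries without a block. Adjusted p is Benjamini-Hochberg over 15099 genes (13233 for that fit), with a threshold of 0.05, and tests are two-sided. SE is the log2 fold change over the square root of F. CPM used TMM-scaled totals, and log2 CPM a prior count of 2. DESeq2 1.42.0 was an alternative. The biological coefficient of variation was 14.6%. Counting error alone is 3.16% at 1000 counts.

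Clone numbers come from the labels, and libraries of the same clone deviated together: the lowest correlation was 0.834 over 28 pairs of tagged groups and 0.862 over 3 pairs of untagged groups. No 2 libraries agreed within sampling noise. The 22 rows without a gene ID were left out of sizes and tests. Nothing says that clones or libraries came from separate cultures beyond the clone, so p-values measure the spread between these libraries. Lengths and overlaps are from GENCODE M21 and promoters from RefSeq GRCm38.p6. Any of the 40 members may be named. Values by library are given for members called in the pooled siRNA comparisons with SCR in tagged clones, in leptomycin B, or between tagged and untagged clones, at most 8 each by smallest p, and for the most abundant member of each role. From each related list up to 4 called genes are named. Per-library values of Rfc5, Pole, Timeless against untreated, Prim1 and Rrm2 were added after their values were seen. The members, lists and tests were chosen with earlier results of these data known. The script was tested on simulated data.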

Additional observations from a re-analysis of the deposited data

How the results depend on the processing

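Of 1950 alternative values, 1439 kept their direction and their side of the threshold, or for counts stayed within 1.5 times, 304 lost the call, 205 counts moved further and 2 reversed. The 2 were Dbf4 with untreated cells as control, at -0.29 for the cyclin D1 siRNAs and -0.19 for the tag siRNAs. Below, counts are of the 40 genes called by edgeR unless DESeq2 is named, and the cause of each shift was not tested. Without the replicate block the count was 0 for the cyclin D1 siRNAs, the tag siRNAs in tagged and untagged clones, the 5 siRNAs against untreated, SCR against untreated, leptomycin B, FLAG, HA and Qiagen against SCR, FLAG and HA in untagged clones, and FLAG, HA and Nature against the other 4. It was 1 for tag against cyclin D1 siRNAs, for Nature and Life against SCR, and for Qiagen and Life against the other 4. DESeq2 called 11 for the cyclin D1 siRNAs, 6 for tag against cyclin D1 siRNAs, 4 for FLAG and 5 for HA against SCR, 2 for HA in untagged clones, 5 for HA and 7 for Qiagen against the other 4. Without the libraries over 2% Rn45s the count was 10 for the cyclin D1 siRNAs, 1 for the tag siRNAs, 1 for HA and 3 for Life against SCR, and against the other 4 it was 0 for FLAG, 2 for Qiagen and 2 for Life. With untreated cells as control it was 13 for the cyclin D1 siRNAs and 11 for the tag siRNAs. Fitting only the libraries of a comparison gave 0 for the cyclin D1 siRNAs, 17 for the tag siRNAs in tagged and 0 in untagged clones, 13 for leptomycin B, 13 for FLAG, 19 for HA, 2 for Nature and 20 for Life against SCR, 7 for FLAG in untagged clones, and 0 for FLAG and 3 for Life against the other 4. Without the filter on low counts FLAG against the other 4 gave 0. Leaving out 1 library at a time gave 0 to 10 for the cyclin D1 siRNAs, 0 to 6 and 0 to 1 for the tag siRNAs in tagged and untagged clones, 2 to 5 for tag against cyclin D1 siRNAs, 3 to 13 for the 5 siRNAs against untreated, 1 to 1 for SCR against untreated and 2 to 4 for leptomycin B. Against SCR it gave 0 to 3 for FLAG, 0 to 5 for HA, 1 to 6 for Qiagen, 2 to 8 for Nature and 1 to 9 for Life, and 0 to 1 for FLAG and HA in untagged clones. Against the other 4 it gave 0 to 1 for FLAG, 0 to 6 for HA, 1 to 7 for Qiagen, 1 to 9 for Nature and 1 to 8 for Life. It gave 0 to 0 for the mCherry lines, tagged against untagged SCR, and the difference of the tag responses.

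The comparisons of tagged and untagged clones rest on 2 libraries a group, and the smallest member count was 275. A missed threshold here does not show that a gene did not differ.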
